A study of Mus musculus with 6 samples.

Results

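Mir378a and Mir22 are microRNA (miRNA) genes that lie inside larger genes. The genes described here are these miRNA genes and the annotated genes that overlap them. For miR-378a these are Gm25301, a predicted miRNA gene on the other strand, and Ppargc1b, the protein-coding host. For miR-22 they are Mir22hg, a non-coding transcript named as its host gene, and Tlcd2, a protein-coding gene. The 6 genes were chosen by name, by Ensembl identifier, out of 10065 genes in the deposited table, which holds 134 miRNA genes and 8439 protein-coding genes. The question was how much of the signal of each host is the miRNA itself. Small RNA was sequenced from hearts of SV129 mice at postnatal day 6, with 3 wild-type and 3 ADAR2-/- samples. ADAR2, encoded by Adarb1, is an enzyme that edits adenosine to inosine in double-stranded RNA. By the methods of the study the animals were female siblings. Both genotypes carried a pre-edited Gria2 (Gria2R/R), which rescues the ADAR2-/- animals from early death. Of the labels on genotype, only those of ADAR2-/- samples mention this allele.

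The only measurement used was the authors' mean normalized count over all samples. This is the read count of a gene divided by a size factor for each library and averaged over wild-type and ADAR2-/- hearts together. The table gives no value per sample, so no spread between animals can be shown and no test between the genotypes was run. The authors' own columns that compare the genotypes were not used. Adarb1 also has 1 mean over both genotypes, so the genotype labels could not be checked with it. Every value below is therefore a level in the pooled hearts and says nothing about the effect of ADAR2. In whole hearts, fewer cells of a type and less RNA per cell cannot be told apart.

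A miRNA is cut from a hairpin in a longer transcript, and 1 arm of the hairpin is loaded into a silencing complex that represses mRNAs paired with its seed, bases 2 to 8 from the 5′ end. Many miRNA genes sit in an intron or exon of a host and are transcribed with it. miR-378a lies within Ppargc1b, which encodes PGC-1β, a transcriptional co-activator of mitochondrial and fatty acid oxidation genes, and it is known for roles in energy metabolism and cardiomyocyte growth. miR-22 is abundant in cardiac and skeletal muscle and is known for its part in cardiac hypertrophy. The function of Tlcd2 is linked to the lipid composition of membranes.

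The mature sequences of miR-22 are shown because nearly all of the signal of Mir22hg and Tlcd2 equalled that of the hairpin that carries them. They are given 5′ to 3′ from RefSeq (GRCm38.p6), with the seed in capitals.
miR-22-5p: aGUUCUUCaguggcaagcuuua
miR-22-3p: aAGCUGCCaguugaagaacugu
Both arms have 22 bases and lie on the plus strand of chromosome 11, miR-22-5p from 75463734 to 75463755 and miR-22-3p from 75463772 to 75463793. They occupy bases 19 to 40 and 57 to 78 of the hairpin of 95 bases. Among 1738 mature mouse sequences compared, 0 others carried either seed, and 0 other hairpins held either mature sequence. The table counts reads per gene and does not separate the arms, so the level of Mir22 is that of both together.

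Mir22 (ENSMUSG00000065529) spans 75463716 to 75463810 on chromosome 11 in GRCm38, plus strand. Mir22hg (ENSMUSG00000085148, 75461539 to 75466676) and Tlcd2 (ENSMUSG00000038217, 75461715 to 75470899) surround it on the same strand. The hairpin lies in exon 2 of both annotated Mir22hg transcripts. In Tlcd2 it lies in exon 2 of 1 transcript, Tlcd2-203, which is annotated as a processed transcript without a protein. The other 3 Tlcd2 transcripts start downstream of the hairpin. Tlcd2-201 and Tlcd2-202, the protein-coding ones, begin 4269 bases after its end, and Tlcd2-204, a retained intron, begins 4901 bases after it. The hairpin is therefore outside every transcript that encodes the Tlcd2 protein, and inside the Tlcd2 gene only through Tlcd2-203.

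Mir378a (ENSMUSG00000105200) spans 61397835 to 61397900 on chromosome 18 in GRCm38, minus strand, and has 66 bases. Gm25301 (ENSMUSG00000093026, 61397813 to 61397925, 113 bases) lies over it on the plus strand and covers it whole. Ppargc1b (ENSMUSG00000033871, 61298136 to 61400431, minus strand) holds both. Mir378a is in intron 1 of all 3 annotated Ppargc1b transcripts, so no exon of the host contains it. The 2 loci thus differ in that the hairpin is intronic in Ppargc1b and exonic in Mir22hg. The files were made on mm9 by the submitters' processing notes, and the coordinates and gene models here are those of GENCODE M21 on GRCm38, matched by identifier.

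**Figure D1:**
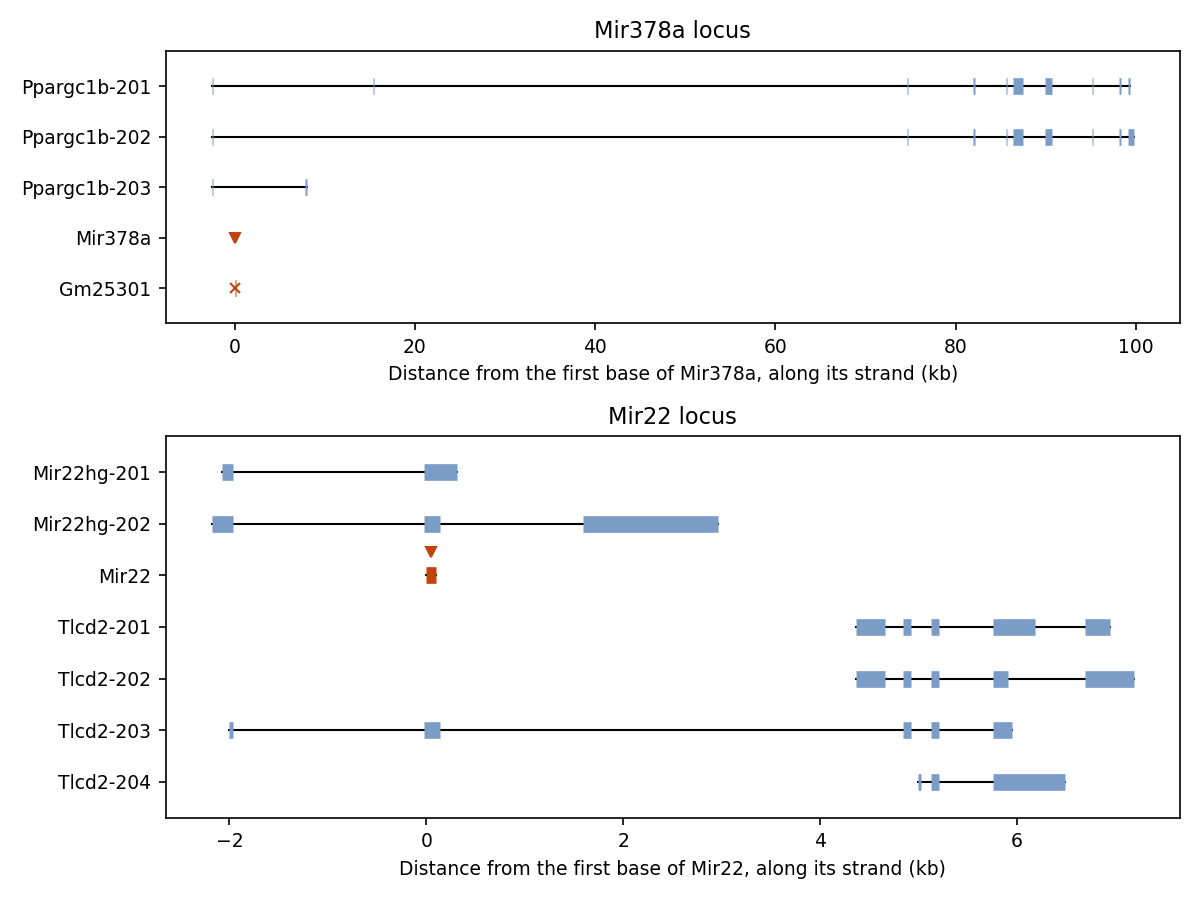
Maps of both loci in GRCm38, one line per annotated transcript, with distance in kb from the first base of the miRNA along its strand. Blue bars are host exons and red bars or marks are miRNA genes, a triangle for the strand of the miRNA that names the panel and a cross for the opposite strand. Mir378a lies in intron 1 of each Ppargc1b transcript, and Mir22 lies in exon 2 of both Mir22hg transcripts and of Tlcd2-203, before the start of the other Tlcd2 transcripts.

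The authors' mean normalized count was 155.5 for Mir22. It was 156.1 for Mir22hg and 156.2 for Tlcd2. The 3 genes had almost the same level, and both hosts were just above the miRNA. The mean of Mir22 was 99.64% of that of Mir22hg and 99.57% of that of Tlcd2. If each miRNA read was also counted on the host, what remained was a mean of 0.568 for Mir22hg and 0.672 for Tlcd2, both below the lowest mean of any gene in the table, 1.09.

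The mean was 87.5 for Mir378a. Gm25301, on the other strand, had a mean identical to it in every digit given, so these genes count as 1 measurement. The mean was 96.5 for Ppargc1b. Mir378a equalled 90.67% of it, and 9.01 remained. The remainder was larger than that of Mir22hg and Tlcd2 and was above the mean of 6105 of the 10065 genes, with no correction for length. In contrast to the hosts of miR-22, the level left on Ppargc1b was thus within the range of the listed genes. No other small RNA gene with a row lies within any of the 3 hosts.

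**Figure D2:**
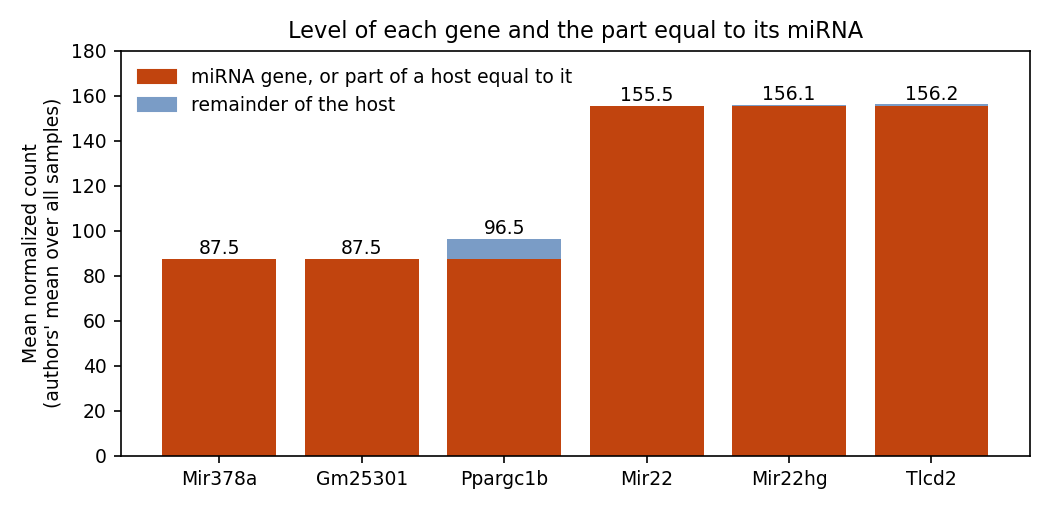
Authors' mean normalized count over all samples (linear axis from 0) for the 6 genes. Red is the miRNA gene, or the part of a host that equals its miRNA, and blue is the remainder of the host; no error can be drawn because the table holds no value per sample. The remainder is 9.01 for Ppargc1b and under 1 for both hosts of Mir22.

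The means also held whole reads. Every one of the 3889 means under 5 could be written in exactly 1 way as a sum of whole multiples of 6 values, each the worth of 1 read in 1 library (0.116 to 0.185 in units of the mean). The recovery of reads was added after seeing the data. It gave the number of reads behind the remainders. The difference between Mir22hg and Mir22 was 4 reads, in 4 libraries (exact Poisson 95% interval 1.09 to 10.2, counting error only). The difference between Tlcd2 and Mir22 was 5 reads, in 3 libraries (1.62 to 11.7). Mir22 itself had between 841 and 1335 reads over the 6 libraries. The difference between Ppargc1b and Mir378a was 57 to 70 reads, the range of 27 whole-read solutions, against 473 to 751 reads for Mir378a. The exact Poisson 95% interval over these solutions ran from 43.2 to 88.4 reads.

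One of the 6 libraries stood apart. It carried 7.18% of the reads on genes with a mean under 5, against 16.1% to 20.8% for each of the other 5, and 4.61% of those on miRNA genes, against 14.8% to 25.1%. Its size factor, 1.33, lay within the range of 0.900 to 1.43 over all libraries. Which sample it was is not given, since the table does not name the libraries. The means of Mir22 and Mir378a could not be recomputed without it, and its part in them was not tested.

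Among the 134 miRNA genes, ordered by the mean and not per length, Mir22 had the 7th highest mean and Mir378a the 11th, shared with Gm25301. With overlapping genes of identical mean taken once, they were 6th and 9th of 120. Mir22 made up 3.45% and Mir378a 1.94% of the sum of the 118 distinct means, in which any equal means are taken once. The highest means belonged to Mir208b (937.6), the cardiac miRNA in a slow myosin gene, then to Mir126a and Mir126b (675.2 each), known from endothelium, and to Mir208a (413.0). Mir22 stood after Mir99a (199.6) and before Mir1a-2 (91.2), and Mir378a directly after Mir1a-1 (90.5) and before Mirlet7c-1 (77.2). The order follows from means with no spread between animals, so whether such neighbours differ could not be tested.

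The equality of Gm25301 and Mir378a was shared by all overlapping miRNA genes in the table. There were 14 pairs of miRNA genes that overlapped on opposite strands, Mir1a-2 with Mir1b and Mir126a with Mir126b among them, and the mean was identical in 14 of 14. The level of Gm25301 was therefore not read as a separate transcript, and the strand from which the reads came cannot be told from these means.

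To see how the 3 hosts stood among other hosts, miRNA genes were paired with the genes of another class around them. Only genes with a row could be paired. A host with too few reads for a row could not enter, so hosts below their miRNA may be missing from these counts. Such hosts were not counted. This gave 107 pairs of 88 miRNA genes with 70 hosts. The host mean was at or above the miRNA mean in 106 of 107 pairs. It was so in 71 of 71 pairs with the miRNA in an intron, in 29 of 30 with it in an exon and in 6 of 6 with it partly in an exon. By strand it was so in 74 of 75 pairs on the same strand and in 32 of 32 on opposite strands. The exception was Mirlet7a-1, with a mean of 51.1, in the non-coding 6720427I07Rik, with 28.0. Hosts thus stood at or above their miRNA in introns and on the opposite strand as well as in exons, and the intronic Mir378a and the exonic Mir22 followed the same pattern.

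The mean of the miRNA was a median of 49.8% of the host mean over the 107 pairs. It was 42.9% where the miRNA was in an intron and 60.7% where it was in an exon. In 27 of the 107 pairs the share was at least 90%. The share of Mir22 ranked 8th in Mir22hg and 9th in Tlcd2, and the share of Mir378a in Ppargc1b ranked 26th. All 3 hosts thus lay among these 27 pairs, Mir22hg and Tlcd2 with the same miRNA. Of the 49 pairs with a miRNA mean of at least 10, as in these hosts, 21 had such a share. Pairs share libraries and in part the same miRNA, so no test was made over them.

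The 4 hosts with a more abundant miRNA than the next, Mir99a, were Myh7, Egfl7, Gm20532 and Myh6. Myh7, the slow myosin heavy chain, had a mean of 943.4, of which Mir208b in its intron was 99.4%. Myh6, the fast cardiac myosin heavy chain, had a mean of 424.5, of which Mir208a was 97.3%. Egfl7, an endothelial secreted factor, had a mean of 675.8, of which Mir126a was 99.9%, and the predicted gene Gm20532 held the same miRNA. Of single pairs, the shares nearest to those of Mir22hg and Tlcd2 belonged to Myh7 and Egfl7. Near shares also belonged to Gm20532 with Mir126a and the predicted gene Gm28653 with Mir133b (99.3% each). So did those of 3 hosts whose mean equalled that of a miRNA (100%), Gm27028 with Mir30c-2, Gm28119 with Mir125b-1 and Mir142hg with Mir142. The shares nearest to that of Ppargc1b were 91.9% for Spaca6 with Mir99b, 92.1% for 6720427I07Rik with Gm24111 and 93.5% for Wdr82 with Mirlet7g. Wdr82 holds 1 miRNA gene, like Ppargc1b, and its remainder was 1.51. Spaca6 and 6720427I07Rik hold 3 miRNA genes each, overlapping genes taken once, so the share of 1 of them does not give the miRNA part of these hosts.

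The means of all miRNA genes within a host were therefore also summed, a step added after seeing the data. The host mean was at or above the sum in 54 of 54 hosts with 1 miRNA gene and in 13 of 16 hosts with several. It was below the sum in 3, Spaca6 (6.93 against 18.5), 6720427I07Rik (28.0 against 104.6) and Fancc (15.1 against 21.2). In 6720427I07Rik 1 miRNA gene alone, Mirlet7a-1 (51.1), stood above the host, so not every read of Mirlet7a-1 was counted there. In Spaca6 and Fancc either not every miRNA read was counted on the host or reads were counted on several miRNA genes. The means cannot tell these apart. Ppargc1b, Mir22hg and Tlcd2 each hold 1 miRNA gene by this count and stood above it, so the same check does not bear on them beyond the single pair. By the sum, Gm11146 (99.7%) and Mir133a-1hg (99.9%), with 2 miRNA genes each, also had shares near those of Mir22hg and Tlcd2.

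**Figure D3:**
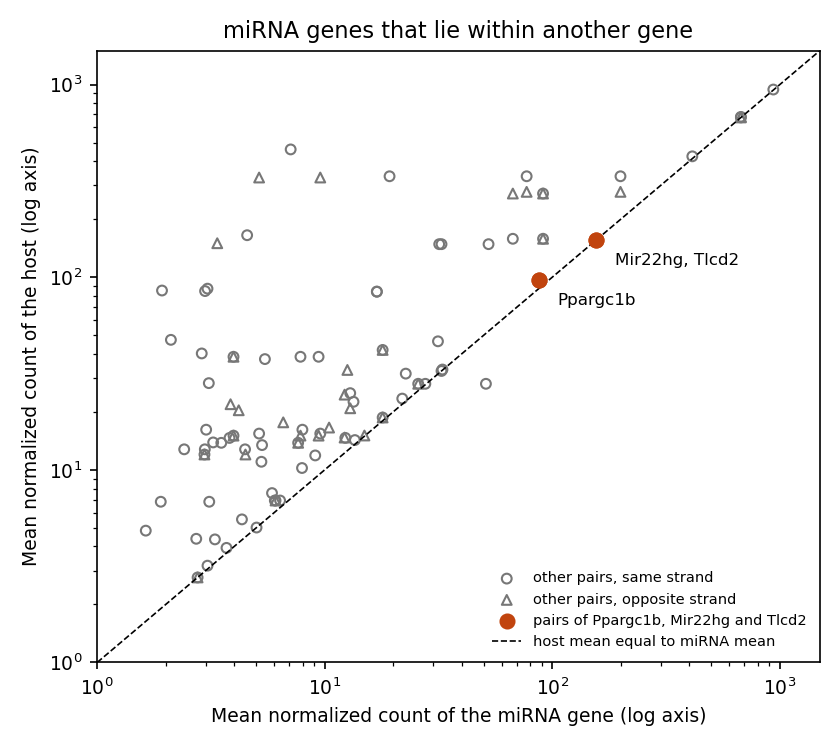
Mean normalized count of the host against that of the miRNA gene within it, both on log axes, for 107 pairs (circles, same strand; triangles, opposite strand). The dashed line marks equal means, and 106 of 107 pairs lie on or above it. The pairs of Ppargc1b, Mir22hg and Tlcd2 (filled, with identical points overlaid) lie on or near the line.

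Levels of genes of different length were compared per kb. Per kb of exon, the annotated exons of all transcripts taken once, Ppargc1b as deposited stood at 24.2. This was higher than 97.7% of the 8409 protein-coding genes with an entry in the annotation, whose median was 1.36. Less Mir378a it stood at 2.26, higher than 67.3% of them, but higher than only 30.3% of those with a mean of at least 10. The remainder, a mean of 9.01, would not itself pass that cut. Per kb of the whole gene, introns included, Ppargc1b stood at 0.943 as deposited, higher than 92.9%, and at 0.0880 less Mir378a, higher than 35.0%. The median of protein-coding genes on this scale was 0.118. The level of Ppargc1b without its miRNA was thus above the median per kb of exon and below it per kb of gene. Subtracting an intronic miRNA assumes that reads in introns were counted on the host, for which the whole gene is the matching length. The comparison genes were taken as deposited and may hold small RNA genes of their own.

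For Tlcd2 the level per kb of exon was 80.7 as deposited, higher than 99.4% of protein-coding genes. Less Mir22 it was 0.347, higher than 4.60% of them. Mir22hg, which is not protein-coding, stood at 81.1 as deposited and at 0.295 less Mir22. Set among the same protein-coding genes it fell from above 99.4% to above 2.90%. Both hosts of miR-22 thus stood near the top of the scale as deposited and near its foot less Mir22. Per kb of whole gene, by contrast, the remainder was higher than 46.6% of protein-coding genes for Mir22hg and 24.9% for Tlcd2. Their place thus depended on the length used. It also rested on 4 reads for Mir22hg and 5 for Tlcd2, so counting error leaves these percentiles imprecise on either scale. Both remainders also lay below the lowest mean listed, 1.09, while every comparison gene stood at or above it.

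Ppargc1b belongs to a group of co-activators and nuclear receptors that govern mitochondrial genes, and 7 of the 11 such genes looked up had a row in the table. Esrra, Tfam, Ppara and Ppard had none among the rows analysed here. The share of all annotated genes with a row was not computed. Counts of listed genes with a row, here and below, therefore have no background beside them. Ppargc1a, which encodes the related co-activator PGC-1α, had a mean of 15.2 (2.31 per kb of exon). Pprc1, the third of the family, had a mean of 5.49 (0.874 per kb of exon). Of the estrogen-related receptors, which PGC-1 proteins co-activate, Esrrg had a mean of 125.9 (20.3 per kb of exon) and Esrrb one of 17.2 (2.85 per kb of exon). Pparg, a nuclear receptor of lipid storage, had a mean of 6.19 (2.10 per kb of exon). The respiratory chain factors Nrf1 and Gabpa had means of 4.37 (0.425 per kb of exon) and 3.17 (0.558 per kb of exon). As deposited, Ppargc1b was above all 7 per kb of exon. Less Mir378a, 3 of the 7 stood above it, Esrrg, Esrrb and Ppargc1a. Per kb of whole gene 0 of the 7 stood above it as deposited and 5 of 7 less Mir378a. The counting interval of its reads puts Ppargc1b less Mir378a between 1.71 and 2.85 per kb of exon. This range holds Ppargc1a and Pparg and ends just below the value of Esrrb. The counting error of these 3 genes was not computed, so the order of Ppargc1b among them is not resolved. No interval was computed per kb of whole gene.

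**Figure D4:**
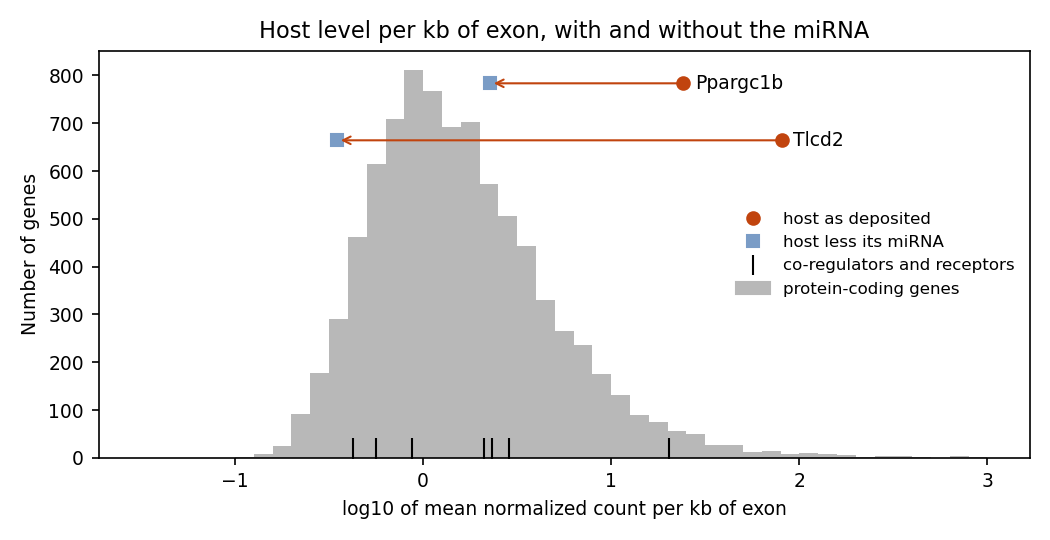
Number of protein-coding genes (grey) by the log10 of their mean normalized count per kb of exon. Red points are Ppargc1b and Tlcd2 as deposited, and arrows lead to the blue squares, the same genes less Mir378a or Mir22; black ticks are the 7 co-activators, receptors and factors with a row. Ppargc1b moves from 24.2 to 2.26 per kb, amid the ticks, and Tlcd2 from 80.7 to 0.347.

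Genes known as targets of these miRNAs were looked up as mRNA levels in the same libraries. These are libraries of short RNA, so reads on an mRNA gene are fragments, and the values do not measure repression. Of 5 genes known as targets of miR-378a that were looked up, 4 had a row, and Crat had none among those analysed here. Per kb of exon the highest was Grb2, an adaptor of receptor kinases, with a mean of 27.4 (9.41 per kb of exon). Igf1r, the receptor of insulin-like growth factor, had a mean of 32.1 (1.91 per kb of exon). Ksr1, a scaffold of a kinase cascade, had a mean of 7.81 (1.10 per kb of exon). Med13, a Mediator subunit, had one of 5.89 (0.543 per kb of exon). Of 4 genes known as targets of miR-22 that were looked up, 2 had a row. The histone deacetylase Hdac4 had a mean of 14.1 (0.890 per kb of exon) and the deacetylase Sirt1 one of 11.6 (2.18 per kb of exon). Of the further genes named for the miR-378 family, Mir378c had a mean of 12.6 and lay in an intron of Samd4 (33.0) on the opposite strand, at 38.1% of its mean, while Mir378b and Mir378d had no row among those analysed here.

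Some markers of the heart had rows, but these were in part miRNA signal themselves. Of 9 cardiomyocyte markers 7 had a row, and Tnni3 and Nppa had none among those analysed here. Myh6 and Myh7 had means of 11.6 and 5.75 less their miRNAs, and the other 5 ranged from 4.82 for Tnnt2 to 82.9 for Ttn. Per kb of exon these 5 ranged from 0.622 for Tnnt2 to 6.20 for Actc1, with Ttn at 0.709. Endothelial markers had rows for 4 of 4 genes, fibroblast markers for 4 of 5, blood markers for 4 of 4 and smooth muscle markers for 0 of 3. Of markers of other tissues, 0 of 3 from liver, 1 of 2 from brown fat and 3 of 3 from neurons had a row. Having a row was thus not read as a sign of a cell type. The neuronal genes had a range of means from 5.45 to 114.0, the highest for Syt1. Per kb of exon they ranged from 0.714 for Gad1 to 13.7 for Syt1. Whether reads on such genes are fragments of their mRNAs was not tested.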

How the data were processed

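Small RNA libraries of 3 wild-type and 3 ADAR2-/- hearts were sequenced by the authors. The submitters' processing notes name Cutadapt, Bowtie, DESeq and the build mm9. Versions, gene annotation, strand setting and the handling of reads with several matches are not given in the sources used here, and a further paragraph of the study's methods describes mapping to mature miRNAs with NextGenMap. The deposited signal is the authors' mean normalized count per gene, pooled over all samples. The 6 other value columns hold the authors' comparison of the genotypes (fold changes, a statistic and p-values) and were not used. Samples were grouped by their genotype labels, but no value per sample exists in the table, so no test, error or depth per sample was available. The first listed mean is 1.09, so genes under a minimum seem to be left out.

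Identifiers were matched to GENCODE M21 (GRCm38), in which 10005 of 10065 were found. A miRNA gene was paired with a gene of another class whose span holds it whole, on either strand, where both had a row. The remainder of a host is its mean less that of the miRNA, which assumes that each miRNA read was also counted on the host. This did not hold for Mirlet7a-1 in 6720427I07Rik. Reads were recovered from the 6 steps of the means with tolerances of 3e-09 for single means and 1.1e-07 for differences. The search for the steps and the recovery from single means under 2 were run on simulated data with chosen size factors. The outcome is not reported here, and no result rests on it. Recovery from larger means and from differences, which gave the reads of the remainders, was not simulated. Intervals cover counting error only. The genes named were the 6 genes and fixed lists of co-activators, targets, family members and markers. Hosts of the 3 highest other nested miRNA means and the 3 nearest to each host in share of a single pair were also named. Neighbours in rank, ties, Fancc, Samd4, Gm11146 and Mir133a-1hg were named after their values were seen. Some genes of the target lists are not reported here. The members and lists were chosen with earlier results of these data known. Scripts were run in Python 3.11.15 with pandas 2.3.3, scipy 1.17.1, numpy 2.4.6 and matplotlib 3.10.9.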

Additional observations from a re-analysis of the deposited data

How the results depend on the processing

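The shares of Mir378a and Mir22 in their hosts were the same when only same-strand miRNA genes or all small genes within the host were counted. By construction these settings could not change them. Each miRNA was on the strand of its host, and each host held 1 distinct mean of a small gene. If miRNA reads had not been counted on the host as well, the miRNA would be 47.6% of the sum of both in Ppargc1b, 49.9% in Mir22hg and 49.9% in Tlcd2. The table does not state the counting rule. The median share over pairs, 49.8%, was 71.9% for miRNA means of at least 10, 42.4% for host means of at least 10 and 42.9% for protein-coding hosts. With all miRNA genes of a host summed, added after seeing the data, the median over hosts was 72.6%. It was 47.8% with distinct pairs and 49.4% on the same strand. Taken alone, exonic pairs gave 29 hosts at or above the miRNA and opposite-strand pairs 32, by construction fewer than 106 because fewer pairs were counted. The percentile of the remainder per kb depended on the length used and on the genes compared. For Mir22hg and Tlcd2 it rested on 4 and 5 reads and is imprecise. Per kb of whole gene it was 35.0 for Ppargc1b, 46.6 for Mir22hg and 24.9 for Tlcd2, against 67.3, 2.90 and 4.60 per kb of exon. For Ppargc1b per kb of exon it was 30.3 when protein-coding genes with means under 10 were left out. Its remainder, a mean of 9.01, would not itself pass that cut. Leaving out replicates was not run because the table pools all samples. No paired analysis was possible because only a pooled mean is given per gene and no result comes from a test. The pooled mean, with 1 library that stood apart and an unknown spread between animals, limits the precision of each level.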
